A study of Mus musculus and Homo sapiens with 12 samples.

Results

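The TGF-beta and bone morphogenetic protein (BMP) signalling components described here are 50 genes chosen by symbol, as listed ligands, latency proteins, receptors, SMADs, antagonists, inhibitors and targets. All 50 had a row in the mouse table of 23201 genes and in the human table of 18190 genes, which together hold 28079 symbols when compared in capitals. The study sequenced RNA of 12 pancreatic ductal carcinoma samples, 3 biological replicates in each of 4 groups. The KPC line is from mouse, and KPC LM2 is its liver-metastatic derivative of generation 2. PANC1 is an established human line, and PANC1 LM3 is its liver-metastatic derivative of generation 3. The labels give the genotype as wild type (WT) in all 4 groups. Per the labels' protocols, each spleen received 500000 cells on day 1, and RNA came from liver tumours taken on day 21. The titles name cells where the protocols name tumours, and host strain and age are not given in the sources used here. Whether a derivative is a clone or a mixed population is not given in the sources used here.

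Each model comes as 1 comparison table from the authors, with a mean normalised count, a log2 fold change, its standard error (SE), and a Wald test p-value adjusted over all genes by the Benjamini-Hochberg method. No value per library was used, so the depth of each sample is unknown and no single sample can be shown. Which group of a table is the numerator is not written in its header, so fold changes are given with their listed sign, which is tied to neither the parental line nor its derivative. A gene is called when its adjusted p is under 0.05. In RNA from a tumour, fewer cells of a type and less RNA per cell cannot be told apart. To show both sides of a fold change in normalised counts, the level of each group was back-calculated from the listed mean and fold change, taking the mean to cover 3 libraries of each group. These levels are named as back-calculated and carry no error of their own.

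TGF-beta ligands are secreted in a latent form, held in the matrix by latent TGF-beta binding proteins, and signal through type II and type I receptor kinases to SMAD2 and SMAD3. BMP ligands use related receptors and act through SMAD1, SMAD5 and SMAD9 to switch on the ID genes, whose proteins block basic helix-loop-helix transcription factors. SMAD6, SMAD7, BAMBI, PMEPA1, SKI and SKIL restrain the pathway, and several of them are themselves switched on by it. In pancreatic carcinoma the TGF-beta branch is known both for growth arrest of early lesions and for invasion and matrix production later.

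Mean normalised counts were 64 or more for 34 members in KPC and for 37 in PANC1, and the ligands and targets among them differed. In the authors' deposited tables the receptor genes TGFBR1, ACVR1 and BMPR2 had similar mean normalised counts in the mouse and the human table, at 772 and 745, 660 and 678, and 2112 and 2043. Some other receptor genes differed, with TGFBR3 at 14.5 in KPC and 349 in PANC1, and ENG at 9.79 and 274. The 2 tables were normalised separately, so these levels are set side by side as a description. TGFBI, an extracellular matrix protein named for its induction by TGF-beta, was at 6696 in PANC1 and at 13.2 in KPC in the authors' deposited tables. The ligand gene TGFB2 was at 1668 in PANC1 and 76.2 in KPC, and BMP6 at 744 and 29.3, in the same deposited tables from the authors. The activin A subunit gene INHBA had the reverse order, 44.2 in PANC1 and 929 in KPC in the authors' deposited tables, as did FST, which encodes the activin antagonist follistatin (12.5 and 466). BMP2 and BMP4 were low in PANC1, at 6.60 and 8.65, and stood at 96.8 and 114 in KPC in the authors' deposited tables. Noggin (NOG) in KPC, at 1.59, and the endothelial receptor gene ACVRL1 in PANC1, at 0.772, had no adjusted p in the authors' deposited tables. In mouse, where exonic lengths could be matched for all 50 members, Tgfb1 was the most abundant of the 3 TGF-beta ligands per length, at 69.0 normalised counts per kilobase against 46.4 for Tgfb3 and 13.2 for Tgfb2. Inhba stood above them at 145 per kilobase, and the highest member was Id2 at 571 per kilobase.

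**Figure D1:**
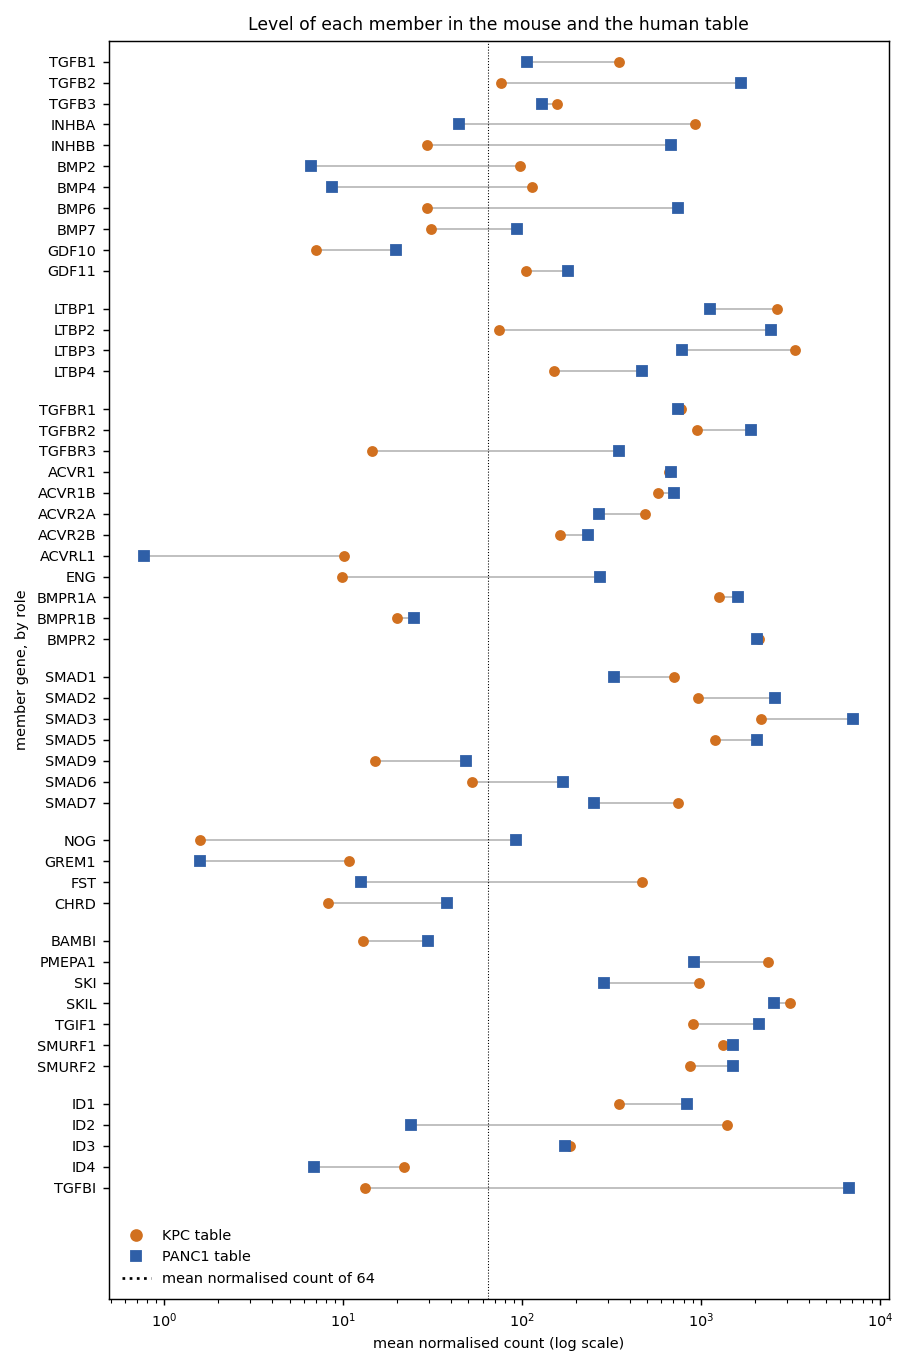
Mean normalised count (log scale) of each member gene, by role, in the KPC table (circles) and the PANC1 table (squares), with a dotted line at 64. TGFBI lies at 13.2 in KPC and 6696 in PANC1, while the points of BMPR2, ACVR1 and TGFBR1 nearly coincide.

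The labelled carcinoma was checked against 8 marker genes (keratins, EPCAM, MUC1, CDH1 and VIM), which had mean normalised counts of 464 to 28158 in KPC and 45.4 to 49702 in PANC1 in the authors' deposited tables. In PANC1 6 of these 8 were called negative and 1 positive, with KRT8 at -4.35 ± 0.06 and CDH1 at -3.92 ± 0.10 (SE) in the authors' deposited table. Host cell markers were low: in KPC the summed mean normalised counts were 75.2 for 7 hepatocyte genes, 156 for 10 endothelial genes, 164 for 10 fibroblast genes and 582 for 9 leukocyte genes, of which Cd14 made up 471. In PANC1 the sums were 163 for 4 hepatocyte, 26.8 for 5 endothelial, 681 for 8 fibroblast and 1157 for 6 leukocyte genes. CD68 (1103) and COL3A1 (405) made up most of the latter pair of sums in the authors' deposited table. ALB and PECAM1 had no value in it. The PANC1 counts are of human genes, so these sums are no measure of cells of a non-human host.

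In KPC 8 of 49 tested members were called (16.3%), against 10.4% of all tested genes in the background. Positive calls were Tgfb1, Smad3, Id2, Pmepa1 and Skil, and negative calls were Ltbp2, Bmp6 and Bmp7. Over all genes 5.77% were called positive and 4.60% negative. Calls also depended on level in this table: of members whose mean count reached 64, 6 of 34 were called (17.6%; 12.7% of all such genes), and below 64, 2 of 15 (13.3%; 8.19% of all such genes). The median log2 fold change was 0.02 over the members and -0.08 over all tested genes. From 64 upwards it was 0.26 for members and 0.22 for all genes, and below 64 it was -0.94 and -1.13, so the members' medians were near those of all genes of like level.

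**Figure D2:**
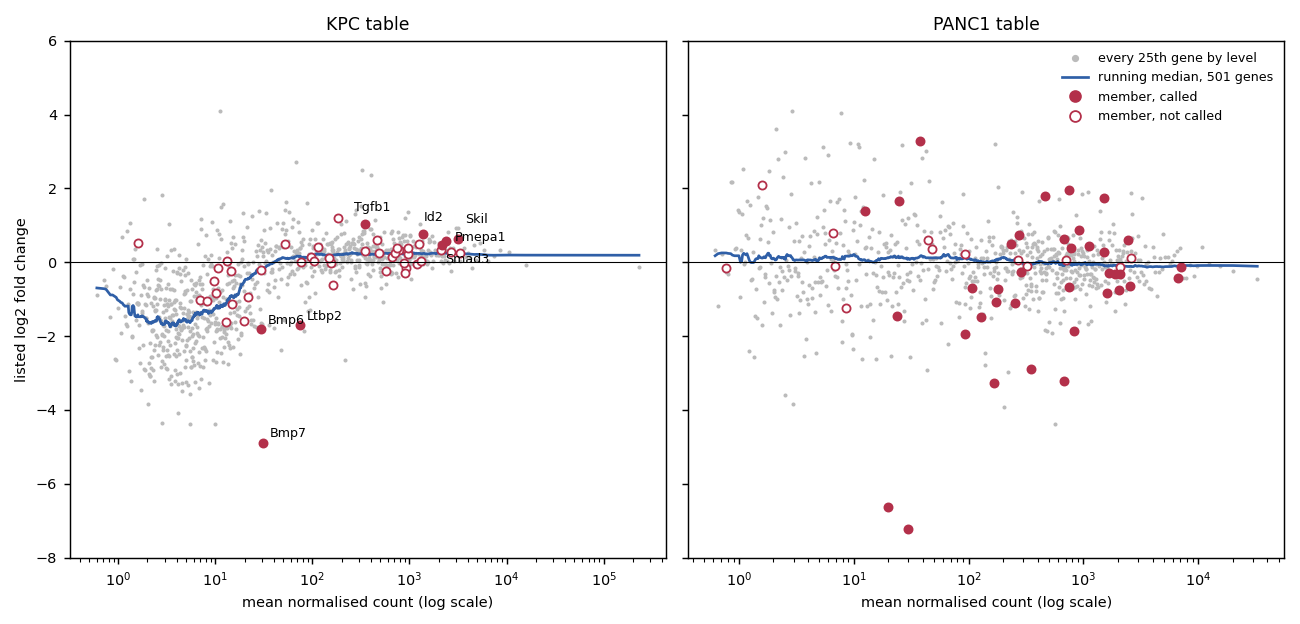
Listed log2 fold change against mean normalised count (log scale) in both tables, with every 25th gene in grey, a running median over genes ordered by level as a line, and members as circles (filled where called). In the KPC table the line lies below 0 at low counts and near 0.2 at high counts; Bmp7, Bmp6 and Ltbp2 lie below it and Tgfb1 above it.

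Among the KPC ligands, Bmp7 had the largest fold change of all members. Its mean normalised count was 30.9 and its log2 fold change -4.89 ± 0.64 (Wald test adjusted p = 1.39e-11) in the authors' deposited table. Back-calculated levels were 2.02 normalised counts on the positive side and 59.8 on the negative side, so the gene was close to the floor in 1 of the groups. Bmp6, another BMP ligand, was listed at -1.81 ± 0.50 (adjusted p = 0.00788, Wald test) with a mean of 29.3 in the authors' deposited table, or 13.0 against 45.5 when back-calculated. Tgfb1 went the other way, at 1.03 ± 0.22 with a mean of 348 (Wald test adjusted p = 0.000257) in the authors' deposited table. Its back-calculated levels were 467 and 228, a 2.05-fold difference. The other TGF-beta ligands were not called and lay at 0: Tgfb2 was at 0.00 ± 0.33 and Tgfb3 at -0.01 ± 0.27 in the authors' deposited table. Their 95% intervals ran from -0.65 to 0.66 and from -0.54 to 0.52. Inhba, the most abundant ligand gene per length, was at -0.15 ± 0.19, Bmp4 at 0.42 ± 0.33, Bmp2 at 0.16 ± 0.30 and Gdf11 at 0.02 ± 0.26 in the authors' deposited table. The activin B subunit gene Inhbb had an SE of 1.47 at a mean count of 29.3 in the authors' deposited table, against 0.50 for Bmp6 at the same level, so its value of -0.20 gives no direction.

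Low-count genes as a whole lay below 0 in this table, and the 3 negative calls had mean counts of 29.3 to 74.4. After a running median over level was subtracted, they stayed past the threshold, at -4.72 for Bmp7 (adjusted p = 8.89e-11 in the Wald test), -1.67 for Bmp6 (0.0229) and -1.86 for Ltbp2 (0.000233). Host markers also lay on the negative side in the authors' deposited table: 10 of 10 fibroblast genes (1 called), 9 of 10 endothelial genes (0 called), 5 of 6 hepatocyte genes (0 called) and 5 of 7 leukocyte genes (1 called) were negative. Back-calculated sums over the lists were 95.1 on the positive and 232 on the negative side for fibroblast markers, 99.3 and 212 for endothelial, 57.2 and 93.2 for hepatocyte and 595 and 569 for leukocyte markers. Of all tested genes under 64 normalised counts, 8276 of 10283 were listed negative. After the level trend was subtracted, the marker medians were -0.82 (fibroblast), -0.14 (endothelial), -0.17 (hepatocyte) and 0.06 (leukocyte). The part of host markers in the Bmp6, Bmp7 and Ltbp2 values was not tested. The exons of Bmp6 and Ltbp2 overlapped genes of the opposite strand over 5.74% and 9.34% of their length in GENCODE's GRCm38 annotation, and the counting is not stated to use strand, so reads from these overlaps are uncertain.

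Of the latency proteins, Ltbp2, which binds to elastic fibres and unlike its relatives does not hold latent TGF-beta, was at -1.71 ± 0.40 with a mean of 74.4 in the authors' deposited table (Wald test adjusted p = 0.000899). Its back-calculated levels were 34.9 and 114. Ltbp1 and Ltbp3, which stood at 249 and 367 normalised counts per kilobase against 9.09 for Ltbp2, had fold changes of 0.27 ± 0.19 and 0.25 ± 0.27 in the authors' deposited table and were not called. Ltbp4 was at 0.12 ± 0.37. No receptor or co-receptor of 12 was called, while 6 were listed positive and 6 negative. The type II receptor genes Bmpr2 and Tgfbr2 had values of 0.33 ± 0.28 and 0.34 ± 0.19, and the type I receptor gene Bmpr1a at 0.50 ± 0.27, in the authors' deposited table. Acvr2b, an activin type II receptor gene, was at -0.63 ± 0.25 (Wald test adjusted p = 0.0776) in the authors' deposited table, and at -0.81 (adjusted p = 0.0243 by the same test) after the level trend was subtracted. Endoglin (Eng) and Acvrl1, known for their role in endothelium, had means of 9.79 and 10.1 in the authors' deposited table.

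Smad3, which carries the TGF-beta signal to DNA, was the called SMAD in KPC, at 0.48 ± 0.17 with a mean of 2156 (Wald test adjusted p = 0.0437) in the authors' deposited table. Smad2 was at 0.23 ± 0.22, Smad1 at 0.26 ± 0.18 and Smad5 at -0.05 ± 0.20, none of them called, in the authors' deposited table. The inhibitory Smad7 and Smad6 were at 0.39 ± 0.26 and 0.49 ± 0.35 and were not called either. Of the inhibitors, Pmepa1, which removes SMADs from the receptor, was at 0.57 ± 0.18 (Wald test adjusted p = 0.0233) in the authors' deposited table, and Skil, a co-repressor of SMAD complexes, was at 0.63 ± 0.20 (0.0247). Both were abundant, at 482 and 325 normalised counts per kilobase. Ski was at 0.40 ± 0.21, Tgif1 at -0.29 ± 0.17, Smurf1 at 0.02 ± 0.17 and Smurf2 at -0.02 ± 0.23 in the authors' deposited table. Bambi, a decoy receptor, had a mean of only 12.9 and a value of -1.61 ± 0.66 in the authors' deposited table (Wald test adjusted p = 0.0919). Among the targets Id2 was called at 0.76 ± 0.22 with a mean of 1391 (Wald test adjusted p = 0.00954) in the authors' deposited table, back-calculated as 1752 against 1031. Id3 had a larger listed change and a larger error, 1.19 ± 0.48 (adjusted p = 0.0885 in the Wald test), and Id1 at 0.31 ± 0.24 in the authors' deposited table, and Tgfbi, at a mean of 13.2, was at 0.02 ± 0.61. Of the extracellular antagonists, Fst was at 0.60 ± 0.29 (Wald test adjusted p = 0.160) in the authors' deposited table, and Grem1 and Chrd were near 10 normalised counts and not called.

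The positive KPC calls other than Tgfb1 rested on the authors' scaling. The median over genes of 64 or more normalised counts was 0.22, and with fold changes recentred on them Id2, Pmepa1, Skil and Smad3 went to 0.55, 0.35, 0.41 and 0.26 (Wald test adjusted p = 0.0788, 0.182, 0.160 and 0.295). Tgfb1 stayed at 0.81 (Wald test adjusted p = 0.00766). In the same setting Acvr2b (-0.85) and Tgif1 (-0.51) passed the threshold, so the split of called members went from 5 positive and 3 negative to 1 and 5.

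Upstream sequence from RefSeq (GRCm38.p6, another build than the authors' mm39) was available for 5 of the 8 called mouse members, and 2 stretches are shown because they carry SMAD-type motifs beside genes with opposite listed signs. The motifs searched on both strands were GGCGCC, a GC-rich element that BMP SMADs bind, CAGAC, the box that SMAD3 binds, which reads GTCTG on the other strand, and the palindrome GTCTAGAC. None of these contains another. Capitals mark GGCGCC in the first and CAGAC or GTCTG in the second.
Id2, chr12:25096254-25096342, minus strand: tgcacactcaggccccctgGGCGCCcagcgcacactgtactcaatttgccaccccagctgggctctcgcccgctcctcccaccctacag
Ltbp2, chr12:84876533-84876741, minus strand: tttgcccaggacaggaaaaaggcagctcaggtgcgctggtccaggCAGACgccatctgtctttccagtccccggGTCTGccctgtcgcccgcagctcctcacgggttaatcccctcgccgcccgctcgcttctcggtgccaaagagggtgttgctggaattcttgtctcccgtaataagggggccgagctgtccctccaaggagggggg
The Id2 stretch holds 1 GGCGCC and the Ltbp2 stretch 2 CAGAC boxes, while the 250 bases before Tgfb1 and before Smad3 held none of these letters. Bmp6, the fifth called member with an entry, also held CAGAC, and its sequence is not shown because the window lies in annotated untranslated region. Bases annotated as untranslated region were left out, which is why both are shorter than the window of 250 bases that was searched. In the 250 bases before the start, GGCGCC was found in 14 of 49 promoters of 37 members (28.6%) and in 9.59% of all 32851 mouse promoters in the table. CAGAC was in 23 of the 49 (46.9%; 42.2% of all), and GTCTAGAC in 0 of the 49 (0.167% of all). These are matches of letters and do not show binding.

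In PANC1 37 of 49 tested members were called (75.5%), against a background of 52.5% of all tested genes. Of the calls 14 were positive and 23 negative, while over all genes 26.0% were called positive and 26.5% negative. From 64 normalised counts upwards, 31 of 37 members were called (83.8%; 69.3% of all such genes), and below 64, 6 of 12 (50%; 23.5% of all such genes). The median log2 fold change was -0.12 over the members and 0.00 over all tested genes. With an absolute log2 fold change over 1 also required, 17 members remained, 6 positive and 11 negative. Most of the 37 calls were thus of small differences measured with small errors. The share of all genes at this threshold is not given here, so the 17 and their signs are not set against a background. The median listed SE of the members was 0.12 in PANC1 and 0.28 in KPC.

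**Figure D3:**
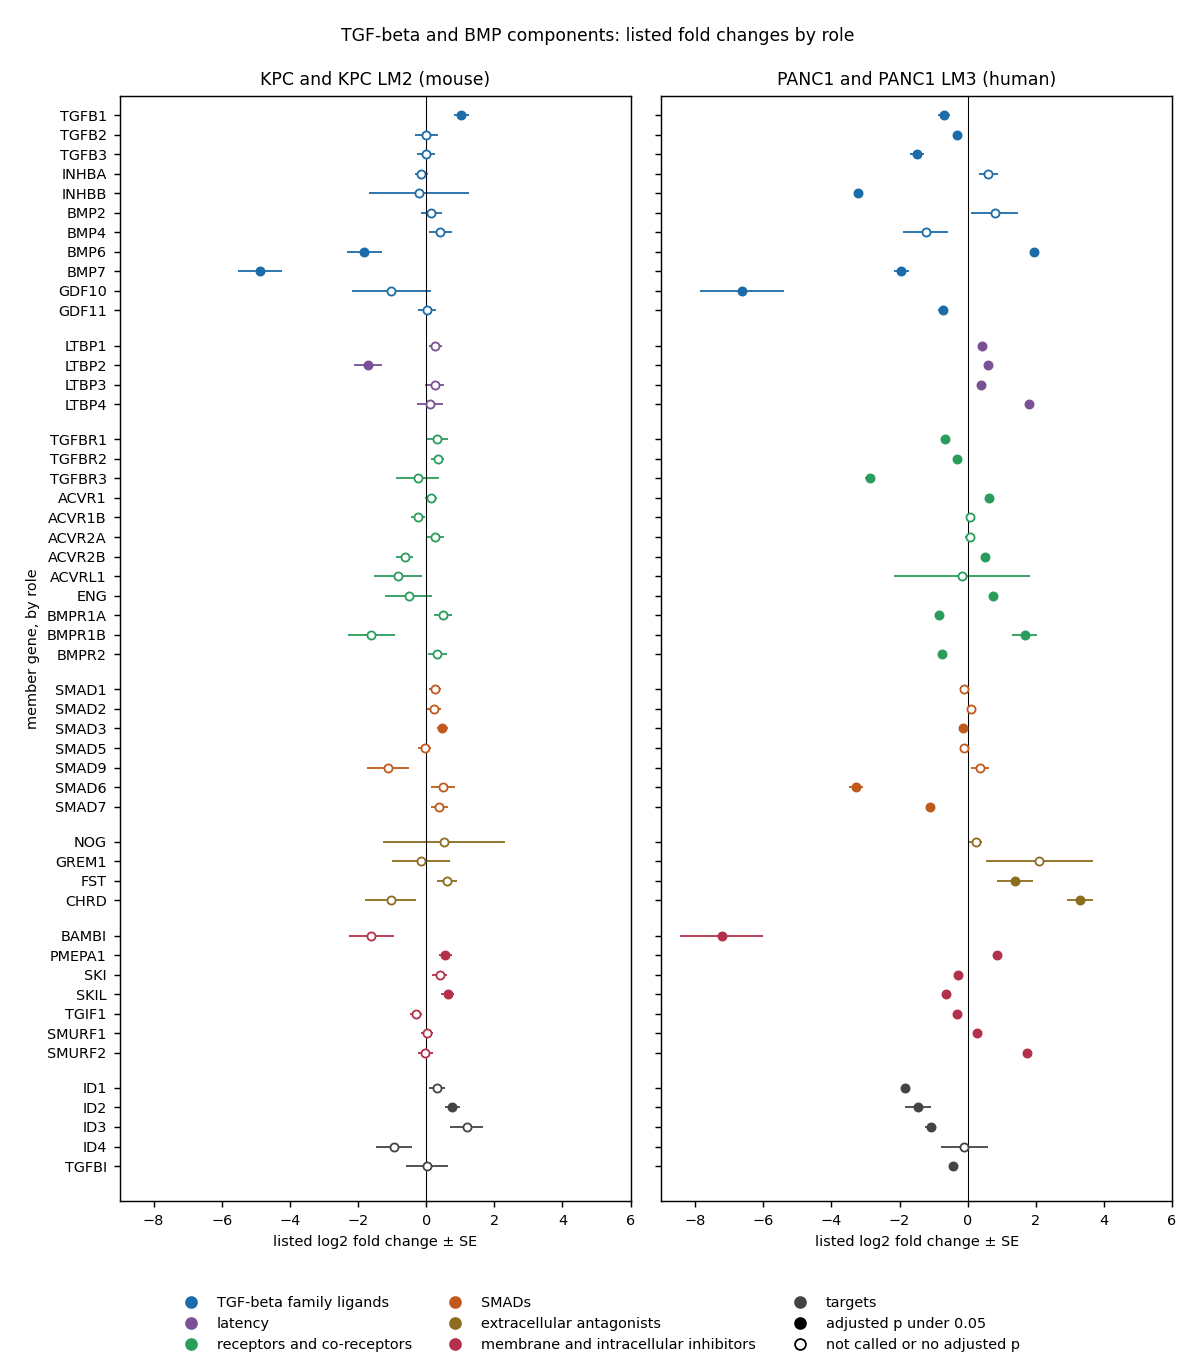
Listed log2 fold change with its SE for each member gene, by role, in the KPC table (left) and the PANC1 table (right), with filled points for an adjusted p under 0.05. In PANC1 all 4 latency genes lie on the positive side and all 5 targets on the negative side, and BAMBI and GDF10 lie below -6.

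The PANC1 ligands were mostly negative, with 7 of 11 called negative and 1 positive. All 3 TGF-beta ligand genes were called: TGFB3 was at -1.49 ± 0.20 (Wald test adjusted p = 1.43e-13), TGFB1 at -0.70 ± 0.18 (0.00035) and TGFB2 at -0.30 ± 0.07 (0.000108) in the authors' deposited table. Back-calculated levels were 1494 and 1842 for TGFB2 and 67.4 and 189 for TGFB3, ratios of 1.23 and 2.81. INHBB was at -3.23 ± 0.11 with a mean of 681 (Wald test adjusted p = 9.78e-195) in the authors' deposited table. This corresponds to 131 normalised counts on the positive side and 1230 on the negative side when back-calculated. GDF10, a BMP3-like ligand, was at -6.63 ± 1.22 with a mean of 19.8 in the authors' deposited table, and the back-calculated sum over the lower group was 1.19 normalised counts, under the floor of 3, so its fold is a fitted value and no bound. BMP7 was at -1.95 ± 0.22 with a mean of 93.1 in the authors' deposited table, back-calculated as 38.3 against 148. GDF11 was at -0.73 ± 0.15 in the authors' deposited table. BMP6 was the ligand on the positive side, at 1.96 ± 0.08 with a mean of 744 (Wald test adjusted p = 2.32e-118) in the authors' deposited table. Its back-calculated levels were 1183 and 304, a 3.89-fold difference. INHBA, BMP2 and BMP4, all with means under 64, were not called, and INHBA was at 0.61 ± 0.28 (Wald test adjusted p = 0.0532) in the authors' deposited table.

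All 4 latency genes of PANC1 were positive and called. Their means were above 64, where 69.3% of all genes were called in either direction. LTBP4 had the largest value, 1.81 ± 0.12 (Wald test adjusted p = 3.04e-53), followed by LTBP2 at 0.60 ± 0.05, LTBP1 at 0.43 ± 0.07 and LTBP3 at 0.40 ± 0.09 in the authors' deposited table. The back-calculated levels of LTBP4 were 726 and 207. Those of LTBP2 were 2970 and 1955. Some marker genes lay on the same side: CD68 was at 1.91 ± 0.07 and COL3A1 at 1.05 ± 0.11, both called, in the authors' deposited table. Listed signs over the tested markers were 2 positive and 4 negative for leukocyte genes, and 4 and 4 for fibroblast genes. Over the marker lists 1 of 8 tested fibroblast genes was called positive and 0 negative, 1 of 6 leukocyte genes positive and 1 negative, and in each of the hepatocyte and endothelial lists 1 of 4 was called negative and 0 positive. Back-calculated sums on the positive and the negative side were 811 and 551 for fibroblast, 1785 and 529 for leukocyte, 106 and 219 for hepatocyte and 19.7 and 33.9 for endothelial markers. These counts are of human genes and are no measure of cells of a non-human host. The part of the marker genes in the PANC1 values of the members was not tested.

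Receptors of PANC1 went both ways, with 4 called positive and 5 negative of 11 tested. TGFBR3, the co-receptor betaglycan that presents ligand to TGFBR2, had the largest value, at -2.88 ± 0.14 with a mean of 349 (Wald test adjusted p = 2.54e-97) in the authors' deposited table. Its back-calculated levels were 83.4 and 614. Both core TGF-beta receptor genes were negative, TGFBR1 at -0.68 ± 0.08 and TGFBR2 at -0.31 ± 0.06, as were the BMP receptor genes BMPR1A at -0.83 ± 0.07 and BMPR2 at -0.77 ± 0.06, in the authors' deposited table. Positive values belonged to BMPR1B (1.67 ± 0.38, at a mean of 24.9), ENG (0.74 ± 0.11), ACVR1 (0.63 ± 0.08) and ACVR2B (0.50 ± 0.13) in the authors' deposited table. Back-calculated, BMPR1B had 37.9 and 11.9 normalised counts, and BMPR1A had 1157 and 2059. The endothelial markers CDH5, KDR, TIE1, ERG and STAB2 had means of 0.985 to 11.8, against 274 for ENG, in the authors' deposited table. These means are not corrected for length. KDR, ERG and STAB2 were listed at 0.80 ± 1.54, 0.30 ± 1.10 and 0.23 ± 0.51, with the sign of ENG, and were not called. CDH5 was called at -4.09 ± 0.95, with the opposite sign. As human genes, these markers are no measure of the endothelium of a non-human host. ACVR1B and ACVR2A were at 0.05 ± 0.08 and 0.06 ± 0.12, with 95% intervals from -0.10 to 0.21 and from -0.19 to 0.30.

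Of the 5 SMADs that carry the signal 1, SMAD3, was called in PANC1 under the authors' scaling, and both inhibitory SMADs were called. SMAD2 was at 0.11 ± 0.06, SMAD5 at -0.12 ± 0.06 and SMAD1 at -0.11 ± 0.11 in the authors' deposited table, and SMAD9 at 0.35 ± 0.26. SMAD3, with a mean of 7093, was called at -0.13 ± 0.05 (Wald test adjusted p = 0.0232) in the authors' deposited table, and after recentring on genes at 64 or more it was at -0.10 with an adjusted p of 0.102 by that test. SMAD2 was called in its place after recentring, at 0.14 (Wald test adjusted p = 0.0203), and after trend subtraction, at 0.22 (0.000169), where SMAD3 was at -0.04 (0.559). SMAD6, which blocks BMP receptor signalling, was at -3.28 ± 0.20 with a mean of 168 (Wald test adjusted p = 3.09e-58) in the authors' deposited table, back-calculated as 31.4 against 305. SMAD7, which blocks TGF-beta receptors, was at -1.10 ± 0.13 with a mean of 252 (Wald test adjusted p = 2.3e-17) in the authors' deposited table, or 160 against 344 when back-calculated.

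The ID genes lay on the same side as SMAD6 and SMAD7. ID1 was at -1.85 ± 0.10 with a mean of 833 (Wald test adjusted p = 2.24e-81), ID2 at -1.46 ± 0.39 with 23.9 and ID3 at -1.08 ± 0.16 with 174 in the authors' deposited table. Back-calculated levels were 361 and 1304 for ID1, 12.7 and 35.1 for ID2, and 112 and 236 for ID3. ID4, at a mean of 6.83, was at -0.10 ± 0.68 and was not called. TGFBI was negative by a small amount, at -0.43 ± 0.06 with a mean of 6696 (Wald test adjusted p = 5.93e-11) in the authors' deposited table. ATOH8, a BMP-responsive transcription factor gene, comes from the list of other pathway genes. It was at -4.05 ± 0.43 with a mean of 48.2 in the authors' deposited table. Of the 12 tested targets in that list, 8 were called positive and 2 negative, with ATOH8 among the latter.

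All 7 inhibitors at the membrane or in the cell were called in PANC1, in both directions. Of all genes, 69.3% were called at 64 or more normalised counts and 23.5% below. BAMBI, a receptor-like decoy without a kinase domain, had the largest fold change of all members, at -7.23 ± 1.21 with a mean of 29.8 (Wald test adjusted p = 1.02e-08) in the authors' deposited table. The back-calculated levels were 0.396 and 59.2, and the lower group summed to 1.19 normalised counts, under the floor of 3, so this too is a fitted value and no bound. SMURF2, a ubiquitin ligase that targets SMADs and receptors, was at 1.74 ± 0.07 with a mean of 1512 (Wald test adjusted p = 3.93e-128) in the authors' deposited table, or 2327 against 697 when back-calculated. Its relative SMURF1 was at 0.26 ± 0.06, and PMEPA1 was at 0.86 ± 0.08, in the authors' deposited table. On the negative side were SKIL at -0.65 ± 0.06, TGIF1 at -0.31 ± 0.06 and SKI at -0.28 ± 0.12 in the authors' deposited table, and SKI had a Wald test adjusted p of 0.0439 that went to 0.0803 after recentring. Of the 4 extracellular antagonists CHRD (chordin, which binds BMPs) was at 3.28 ± 0.38 with a mean of 38.0 and FST at 1.39 ± 0.53 with 12.5 in the authors' deposited table, both called. NOG (0.23 ± 0.20) was not called, nor was GREM1, which had a mean of 1.58.

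A list of 84 other pathway genes was described in the same way. In KPC 1 of 76 tested was called positive and 4 negative, a share of 6.58%, against a background of 10.4%. Of all genes under 64 normalised counts, where the list's median lay, 8.19% were called. The positive one was the BMP antagonist gene Nbl1 at 1.64 ± 0.24, and the negative ones were the TGF-beta and YAP target Ccn2 (-0.88 ± 0.17), the receptor-binding immunophilin gene Fkbp1a (-0.49 ± 0.17), Chrdl2 (-3.34 ± 1.12, at a mean of 5.36) and Col1a1 (-1.84 ± 0.63) in the authors' deposited table. The median log2 fold change of the list was -0.40, against -0.08 over all tested genes, and it was -0.15 after the level trend was subtracted, the list having a median count of 36.0. In PANC1 23 of 65 tested were called positive and 20 negative, a share of 66.2%, with a median log2 fold change of 0.09. The background was 52.5% of all tested genes and 69.3% of those at 64 or more, and the list's median count was 264. Of 12 targets in this list 8 were called positive and 2 negative, with CCN2 at 1.22 ± 0.06 and a mean of 3131 in the authors' deposited table. Genes that activate latent TGF-beta were mainly on the other side, 5 negative and 2 positive of 9. THBS1 was at -2.08 ± 0.09, the integrin genes ITGB8 at -2.26 ± 0.17 and ITGAV at -0.75 ± 0.06 in the authors' deposited table. Among the ligands BMP5 was at -2.59 ± 0.11 with a mean of 647, and of the antagonists TWSG1 was at -1.27 ± 0.07 and FSTL1 at 1.62 ± 0.11, in the authors' deposited table.

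All 8 members called in KPC were also called in PANC1, and 6 of them had opposite listed signs. These were TGFB1 (1.03 and -0.70), LTBP2 (-1.71 and 0.60), BMP6 (-1.81 and 1.96), SMAD3 (0.48 and -0.13), ID2 (0.76 and -1.46) and SKIL (0.63 and -0.65), with KPC first, in the authors' deposited tables. BMP7 (-4.89 and -1.95) and PMEPA1 (0.57 and 0.86) had the same sign in both deposited tables from the authors. Since the numerator is not named in either table, the 6 and the 2 cannot all share 1 relation to selection, whichever way each table was taken. Of the 4 whose KPC call held after recentring, TGFB1, LTBP2 and BMP6 were opposite and BMP7 was the same. Over the 12777 symbols tested in both tables, 972 (7.61%) were called in both, against 8 of 48 members (16.7%). Opposite signs were listed for 556 (4.35%) and the same sign for 416 (3.26%), so 57.2% of the 972 were opposite. How many of all genes called in KPC were also called in PANC1 was not counted. In PANC1 52.5% of all tested genes were called, and 69.3% of those at 64 or more normalised counts. The tables share no sample.

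**Figure D4:**
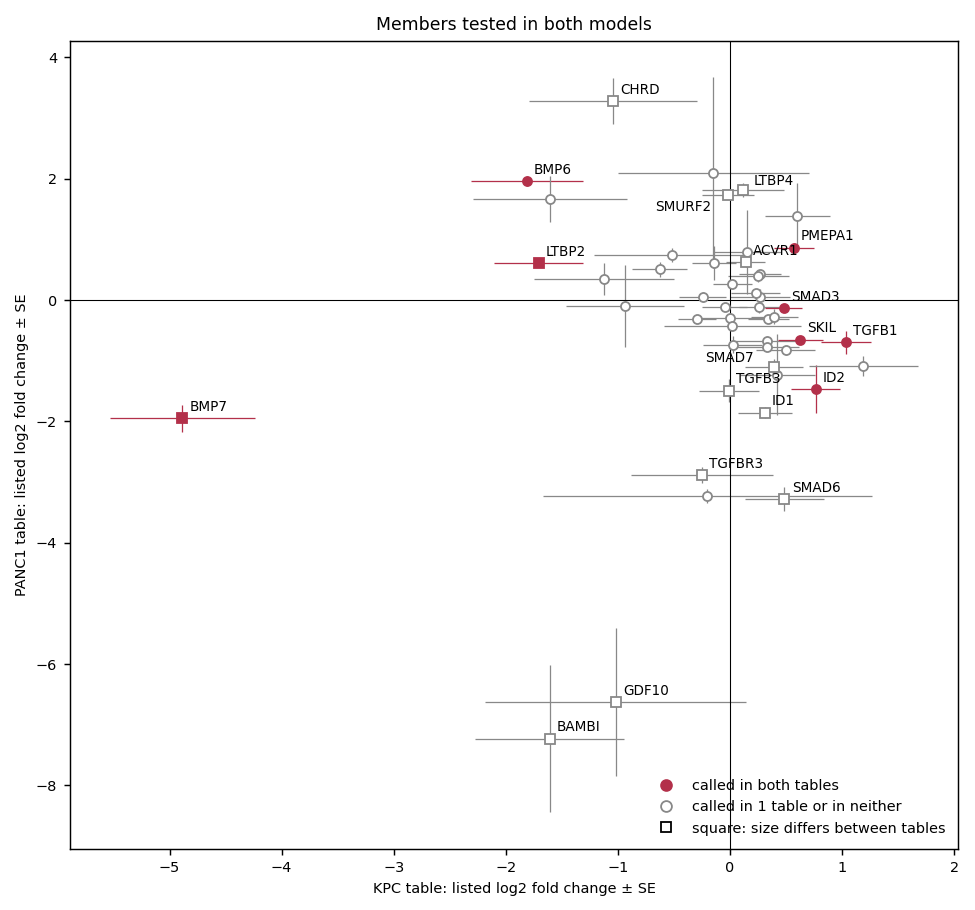
Listed log2 fold change with SE in the KPC table (x axis) and the PANC1 table (y axis) for the 48 members tested in both, with filled points called in both tables and squares where the size of the change differed between tables. BMP7 lies at -4.89 and -1.95, and TGFB1, ID2, SKIL and SMAD3 lie in the quadrant that is positive in KPC and negative in PANC1.

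The difference between models was tested so that it holds whichever way each table was taken: the difference and the sum of the 2 fold changes both had to pass an adjusted p of 0.05 over all 12777 symbols. By this test 13 of 48 members differed in size (27.1%), against a background of 13.4%. In 11 of them the PANC1 change was the larger, and in BMP7 and LTBP2 the KPC change was. The same split over all symbols that passed was not counted, so it is not read as a trait of the members. Over all genes the median listed SE was 0.53 in KPC and 0.14 in PANC1. SMAD6 had the firmest difference among the inhibitory SMADs, with -3.28 in PANC1 and 0.49 in KPC (normal test, larger adjusted p = 3.09e-10), and SMURF2 was at 1.74 against -0.02 (6.58e-11). ID1 was at -1.85 against 0.31 (6.3e-08 for the larger adjusted p). BMP6 and SKIL had opposite listed signs with sizes close to each other, and neither passed this test, with larger adjusted p-values of 0.863 and 0.953. Their sizes differed by 0.15 and 0.02, with combined SEs of 0.51 and 0.21. INHBB, at -3.23 in PANC1, did not pass either, since its KPC value carried an SE of 1.47 (normal test, larger adjusted p = 0.0961).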

How the data were processed

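RNA was prepared with a TruSeq kit, per the labels' protocols. Per the submitters' processing notes the authors' builds were mm39 and hg19, and the tools named, without their roles, were DESeq2 1.24, featureCounts 2.0.0, STAR 2.7.6a and MultiQC 1.9; settings are not given in the sources used here. The authors deposited 1 table per model. The mean normalised count is a signal computed by the authors, read as counts over size factors. Fold changes and SEs were deposited on the log2 scale. The deposited Wald score equalled the fold change over its SE within 9.17e-08, and the deposited adjusted p-values equalled Benjamini-Hochberg values within 2.5e-06. A signed negative log10 p was deposited and not used. An adjusted p was listed at a mean of 3.08 or more in KPC and 1.08 in PANC1. Depth per sample is unknown.

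The planned count test needs values per library, so the authors' DESeq2 Wald test was used over all genes. Members and lists were chosen with earlier results of these data known. Every called member is named; of those not called, the most abundant per role; of other pathway genes, up to 4 per role with the smallest adjusted p; some further members were chosen after their values were seen. Models were matched by symbol in capitals, and the 2 relative orientations were each tested with a normal test. Exonic lengths came from GENCODE M21 and promoters (37 members matched) from RefSeq, both GRCm38. As alternatives, calls were repeated at an adjusted p of 0.01, with a minimum absolute log2 fold change of 1, after adjusting over every gene with a p, on genes at 64 or more, after recentring on these, after subtracting a running median over level, and with a t distribution with 4 degrees of freedom. Tested on simulated data, 63% of KPC genes at 64 or more changed by 1 on the log2 scale were called among 20050, and 98% changed by 2; in PANC1 100% of both among 17838. Software was Python 3.11.15 (scipy 1.17.1, pandas 2.3.3, numpy 2.4.6), with figures drawn in matplotlib 3.10.9.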

Additional observations from a re-analysis of the deposited data

Results flagged for a closer look

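For 13 members the size of the log2 fold change differed between the mouse and the human model in a test that holds for either orientation of the tables. The differences below are the absolute log2 fold change in PANC1 minus that in KPC. The ligand and antagonist genes among them were TGFB3 at 1.48, GDF10 at 5.61, CHRD at 2.24 and BMP7 at -2.93. Of the latency genes LTBP4 was at 1.69 and LTBP2 at -1.10. Of the receptors TGFBR3 was at 2.63 and ACVR1 at 0.48. The inhibitors SMAD6, SMAD7, BAMBI and SMURF2 were at 2.79, 0.71, 5.62 and 1.72, and the target ID1 was at 1.55. GDF10 and BAMBI rest on a human group under the floor of 3 normalised counts, so the size of their difference is a fitted value.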

How the results depend on the processing

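No paired analysis was possible because the tables hold no value per library; for the same reason leaving out replicates and the tests on counts were not run. In KPC 8 members were called; 5 were at an adjusted p under 0.01, 4 with an absolute log2 fold change over 1, and 0 with a t distribution with 4 degrees of freedom (8 at an unadjusted p under 0.05; 13 by the Wald test), which also called 0 of all genes. The other 4 alternatives called 6 or 7, and recentring and trend subtraction each shared 4 of these with the 8 and gained Acvr2b and Tgif1. In PANC1 37 members were called, 17 with an absolute log2 fold change over 1, and 31 to 37 otherwise. Recentring lost SKI and SMAD3 and gained INHBA and SMAD2. The 13 members that differed between models became 7 of 29 tested at 64 or more, where fewer genes could be tested. With the same orientation assumed they were 27 of 48 (56.2%), against 34.9% of all 12777 symbols. The other alternatives gave 9 to 14. Apart from the t distribution in KPC and the same orientation, shares of all genes in these alternatives are not given here. No called member changed sign in any alternative run. Where alternatives changed a call beyond the threshold or gene set itself, the cause was not tested. Errors are largest below 64 normalised counts.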
